A study of Mus musculus with 4 samples.

Results

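The genes described here are 10 that mark the contractile machinery of myoepithelial and smooth muscle cells and the basal lineage of the mammary gland: Acta2, Myh11, Mylk, Cnn1, Tagln, Cald1, Tpm1, Tpm2, Oxtr and Trp63. They were taken by name from the annotation of the array, and each of the 10 had a single probe set of its own, among 19938 genes with such a probe set. Their levels were measured in 4 clonal lines that came from 1 spontaneous tumor in the mammary gland of a female FVB/N Tg (MMTV/neu) mouse, which carries the rat ErbB2 (neu) oncogene under the mouse mammary tumor virus promoter, so that all 4 lines share this transgene. The epithelial lines E1 and E2 came from cells sorted for high neu and high CD24 and were kept in RPMI medium containing 20% serum. Cells low for neu and CD24 gave the mesenchymal-like lines M1 and M2, which were kept in MEGM, a mammary epithelial medium with hydrocortisone, insulin, epidermal growth factor and pituitary extract, with 2% serum. Type and medium cannot be told apart. Each line is a single clone with 1 Affymetrix mouse gene array, and 3 of them (E1, E2 and M2) formed tumors in the mammary fat pad while M1 did not.

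Myoepithelial cells form the outer, basal layer of mammary ducts and alveoli. They combine an epithelial origin with a smooth muscle apparatus, and they contract when oxytocin from the pituitary reaches its receptor on their surface, which expels milk. Calcium released in the cell activates myosin light chain kinase, which phosphorylates the myosin light chain and lets myosin filaments slide along actin, while calponin, caldesmon and tropomyosin on the actin filament tune that contraction. Many of these genes are driven by serum response factor (Srf) and its actin-sensitive cofactors through a promoter element named the CArG box. Some of them also rise in fibroblasts and in cells that lose epithelial character, so that they are often read together with the markers of epithelial to mesenchymal transition.

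None of the contractile genes was called different between the mesenchymal-like and the epithelial lines. The limma fit called 0 of the 10 different between E1 and E2 and M1 and M2, against 3.73% of all 23410 probe sets tested, and 1 of the 10, Tpm1, had an unadjusted p under 0.05 (4203 of all probe sets did). As differences on the log2 scale, epithelial minus mesenchymal-like, 4 genes were above 0 and 6 below, with a median of -0.04, and a median of -0.002 over all probe sets. The median size of the difference was 0.17 for these genes and 0.16 for all probe sets. For 8 of the 10 the 95% interval of the difference lay within 2-fold in either direction, and for Mylk and Cald1 it was wider. In RNA from whole cultures, fewer cells of a type and less RNA per cell cannot be told apart. The p-values and intervals rest on the spread between 2 clones of each type, which limma moderates toward a spread drawn from all probe sets tested. For Cnn1 the standard deviations were 0.07 and 0.02 in the 2 types, and the standard error of the difference was 0.11. Nothing shows that a line was grown more than once.

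**Figure D1:**
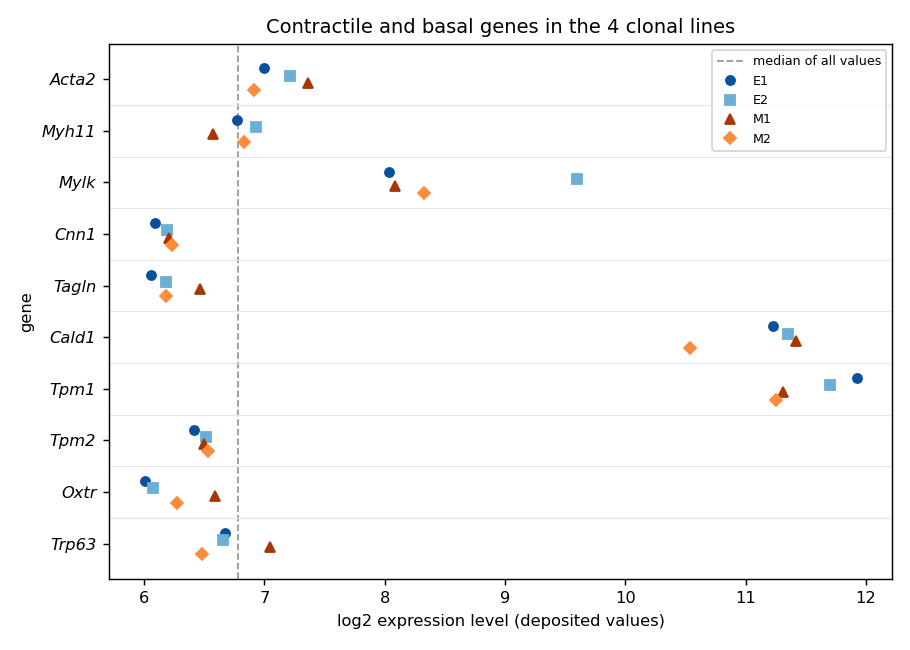
Deposited log2 expression levels (horizontal axis) of the 10 genes (vertical axis) in E1, E2, M1 and M2, 1 array per line; the dashed line is the median of all values, 6.78. The 4 lines lie close together for most genes, and E2 stands apart for Mylk at 9.59.

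The lines that were labelled mesenchymal-like carried other marks of that state. E-cadherin (Cdh1), which holds epithelial cells together, had log2 levels of 12.15 and 12.31 in E1 and E2 and 6.70 and 6.51 in M1 and M2. The transcription factors Zeb1 and Twist1, which repress epithelial genes, were lower in E1 and E2, with log2 differences of -3.59 and -3.36 (limma adjusted p = 0.0113 and 0.0161). Vimentin (Vim), the intermediate filament of mesenchymal cells, was at 12.79 and 13.10 in E1 and E2 and at 13.72 and 13.82 in M1 and M2, which did not pass (limma adjusted p = 0.0896). Erbb2 was at 11.83, 11.95, 10.58 and 11.03 in E1, E2, M1 and M2 (limma adjusted p = 0.0852). Cdh1, Zeb1 and Twist1 thus differed in the direction that the labels of the lines give. Cd24a, the gene of the sorted surface protein CD24, did not follow the sort, at 11.61, 12.15, 12.39 and 12.53 in E1, E2, M1 and M2, with both mesenchymal-like lines higher (limma adjusted p = 0.309).

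Acta2 encodes smooth muscle alpha-actin, the thin filament of contractile cells and the usual stain for myoepithelium and for activated fibroblasts. Its log2 levels in E1, E2, M1 and M2 were 6.99, 7.21, 7.36 and 6.91. The highest and the lowest line were both mesenchymal-like, so the types overlapped. The log2 difference was -0.03 (95% interval -0.60 to 0.54, limma adjusted p = 0.973), and its sign turned under quantile normalization, under median centring of the arrays and without E1 or M1. Myh11, the smooth muscle myosin heavy chain, was at 6.77, 6.93, 6.57 and 6.83 in E1, E2, M1 and M2, and the types overlapped here as well. Its log2 difference was 0.15 (95% interval -0.27 to 0.56, limma adjusted p = 0.725), and it ran from 0.02 without M1 to 0.28 without M2. Actin genes are nearly alike in coding sequence, so signal shared between the probe sets of Acta2 and other actins was not tested.

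The Acta2 promoter is shown because its CArG-like elements are sites of the kind through which Srf is known to act on smooth muscle genes. The window spans 250 bases before to 50 after the start (RefSeq, GRCm38.p6, chr19:34255324-34255623, minus strand), written 5′ to 3′. Capitals mark CArG-like matches, in which 1 of the 6 central letters of the CArG box may be C or G, and MCAT matches, CATTCC on either strand, the element bound by TEAD factors.

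Acta2: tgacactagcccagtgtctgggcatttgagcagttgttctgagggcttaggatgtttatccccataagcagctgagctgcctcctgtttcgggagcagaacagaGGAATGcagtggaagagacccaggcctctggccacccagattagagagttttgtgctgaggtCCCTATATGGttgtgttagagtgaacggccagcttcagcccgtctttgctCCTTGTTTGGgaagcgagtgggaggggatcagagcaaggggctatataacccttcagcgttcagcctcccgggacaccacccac

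A CArG-like match began 84 bases before the start and another 34 bases before it, and the MCAT match began 146 bases before it. For the members, 7 of the 10 genes had a window in the table, with 8 windows in all because Cald1 has 2. No window held a CArG box without a mismatch, which 1.63% of all 32851 windows did. Only the Acta2 window held CArG-like matches, 1 of 8 windows (12.5%) against 9.98% of all. MCAT matches lay in 4 of the 8 (50%), those of Acta2, Mylk, Tpm1 and the first of Cald1, against 14.7% of all. These are matches of letters, and binding was not measured.

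Mylk encodes myosin light chain kinase, the enzyme that starts smooth muscle contraction, and its locus also yields a long form found in non-muscle cells. It varied more than any other of the 10 genes, with log2 levels of 8.04 and 9.59 in E1 and E2 and of 8.09 and 8.32 in M1 and M2. E2 alone stood high, 2.94-fold above E1, while E1 was the lowest line, next to M1. The log2 difference between the types was 0.61 (95% interval -0.97 to 2.20, limma adjusted p = 0.696). It was -0.17 without E2 and 1.39 without E1, so that E2 set its sign. The other members of the kinase family, Mylk2, Mylk3 and Mylk4, differed between the types by -0.11, -0.02 and 0.13 on the log2 scale, and none was called (limma adjusted p = 0.786, 0.967 and 0.755).

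Calponin 1 (Cnn1), which binds actin and restrains myosin in smooth muscle, was at 6.09, 6.19, 6.21 and 6.23 in E1, E2, M1 and M2. Both epithelial levels lay below both mesenchymal-like ones, by a gap of 0.02. Transgelin (Tagln, also SM22), an early marker of smooth muscle, was at 6.06, 6.18, 6.46 and 6.18, with M1 highest. The log2 differences of Cnn1 and Tagln were -0.08 (95% interval -0.38 to 0.22, limma adjusted p = 0.8001) and -0.20 (95% interval -0.62 to 0.21, limma adjusted p = 0.611). Without E1 that of Cnn1 was -0.03, and that of Tagln was -0.06 without M1 and -0.34 without M2. Their non-muscle relatives Cnn2, Cnn3 and Tagln2, which bind actin in many cell types, differed by 0.28, 0.21 and 0.45 on the same scale and were not called (limma adjusted p = 0.372, 0.646 and 0.314).

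Caldesmon (Cald1), which blocks the contact of myosin with actin and has both a smooth muscle and a non-muscle form, was at 11.23 and 11.35 in E1 and E2 and at 11.42 and 10.53 in M1 and M2. M2 was the low line and the other 3 were close together. The log2 difference between the types was 0.32 (95% interval -0.61 to 1.24, limma adjusted p = 0.741). It was 0.76 without M1 and -0.12 without M2, and the former is the closest that any of the 10 genes came to a call under an alternative (limma adjusted p = 0.0798). A probe set over the whole gene does not tell the forms of Cald1, Mylk or the tropomyosins apart.

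Tropomyosins lie along the actin filament and gate the access of myosin. Tpm1 was the only one of the 10 genes whose interval did not include 0. Its log2 levels were 11.93 and 11.70 in E1 and E2 and 11.32 and 11.25 in M1 and M2, with both epithelial levels above both mesenchymal-like ones by a gap of 0.39. The mean was 11.81 ± 0.16 (SD, n = 2) in the epithelial and 11.28 ± 0.05 (SD, n = 2) in the mesenchymal-like lines. The log2 difference was 0.53 (95% interval 0.17 to 0.90, standard error 0.13), 1.45-fold, and it did not pass (limma adjusted p = 0.151, from 0.145 to 0.546 over the alternatives). Tpm2 was the most even of the 10 genes, at 6.42, 6.51, 6.50 and 6.53 in E1, E2, M1 and M2, with a range of 0.11 that was narrower in only 5.91% of all probe sets. Its log2 difference was -0.05 (95% interval -0.35 to 0.25, limma adjusted p = 0.892), and -0.004 without E1.

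The Tpm1 promoter is given because Tpm1 had the lowest p of the 10 genes (RefSeq, GRCm38.p6, chr9:67049164-67049463, minus strand), with the MCAT match in capitals, which began 56 bases before the start.

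Tpm1: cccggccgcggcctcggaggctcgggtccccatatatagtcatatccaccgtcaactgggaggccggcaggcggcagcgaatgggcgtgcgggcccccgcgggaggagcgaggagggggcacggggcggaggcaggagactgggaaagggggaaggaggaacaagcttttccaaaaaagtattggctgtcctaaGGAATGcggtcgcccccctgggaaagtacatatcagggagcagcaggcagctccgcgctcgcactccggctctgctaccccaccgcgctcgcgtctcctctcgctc

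For the remaining tropomyosins the difference was below 0. Tpm3 was at 12.44, 12.49, 12.88 and 12.86 in E1, E2, M1 and M2, a log2 difference of -0.41 (95% interval -0.70 to -0.12), and Tpm4 at 11.95, 12.17, 12.41 and 12.37, a difference of -0.33 (95% interval -0.69 to 0.03). Neither passed (limma adjusted p = 0.158 and 0.317), and the contrast of Tpm1 with Tpm3 and Tpm4 was not tested.

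The oxytocin receptor (Oxtr) couples the hormone to contraction. Its log2 levels were 6.003 and 6.07 in E1 and E2 and 6.59 and 6.28 in M1 and M2, with both mesenchymal-like lines above both epithelial ones by a gap of 0.20. The log2 difference was -0.39 (95% interval -0.82 to 0.03, limma adjusted p = 0.310), and -0.24 without M1. All 4 levels were below 6.78, the median of all values, and when such values were raised to that median the difference was 0. Trp63 encodes p63, the transcription factor that maintains the basal layer of stratified and glandular epithelia. It was at 6.67, 6.66, 7.05 and 6.48 in E1, E2, M1 and M2, so that M1 was the highest and M2 the lowest line. The log2 difference was -0.10 (95% interval -0.73 to 0.53, limma adjusted p = 0.906), and it was 0.19 without M1 and -0.38 without M2.

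The levels of the types did not overlap in 3 of the 10 genes (Cnn1, Tpm1 and Oxtr), against 48.0% of all probe sets. The range over the 4 lines reached 2-fold in 1 gene, Mylk, against 18.2% of all probe sets, and the median range was 0.51 log2 units against 0.39. Of the 10 genes, 7 had levels from 6.003 to 7.36 in all lines, and Mylk, Cald1 and Tpm1 had levels from 8.04 to 11.93. Probe sets differ in how strongly they bind, and the background of these arrays is not known, so a low value does not show that a transcript was absent and values of different genes do not rank them.

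**Figure D2:**
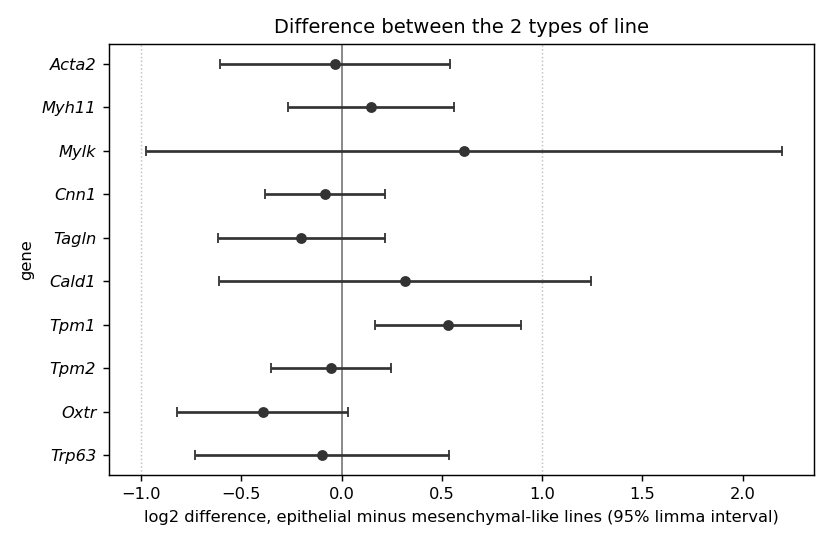
Log2 difference of each gene, epithelial minus mesenchymal-like lines (horizontal axis), with bars for the 95% interval from limma (n = 2 lines per type); dotted lines mark 2-fold. The interval leaves out 0 for Tpm1 alone and crosses a 2-fold line for Mylk and Cald1.

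Clones of a type also differed from each other, with a median size for the 10 genes of 0.12 log2 units between E1 and E2 and 0.27 between M1 and M2. Over all probe sets tested these medians were 0.14 and 0.18. Among the 10 genes, Mylk alone was 2-fold or more apart between E1 and E2 (log2 difference 1.56, E2 minus E1), 1 of 10 against 2.24% of all probe sets. The other 9 genes were at most 1.17-fold apart between E1 and E2. Between M1 and M2, 0 of the 10 reached 2-fold, against 5.86% of all probe sets. The widest were Cald1 at 1.84-fold, Trp63 at 1.48-fold and Acta2 at 1.37-fold, all 3 higher in M1. With levels below the median of all values raised to it, the log2 difference of Trp63 between M1 and M2 went from 0.57 to 0.27. These are differences of 1 array from 1 array and carry no test.

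M1, the line that formed no tumor, was above E1, E2 and M2 for 5 of the 10 genes (Acta2, Tagln, Cald1, Oxtr and Trp63), while M1 was the highest line in 26.0% of all probe sets. It was below the other lines for Myh11. For Trp63, the M1 level was 7.05 and the mean of the remaining lines 6.60 ± 0.11 (SD, n = 3), a log2 difference of 0.44 (95% interval 0.01 to 0.88, limma adjusted p = 0.699). For Oxtr these were 6.59 and 6.12 ± 0.14 (SD, n = 3), a difference of 0.47 (95% interval -0.02 to 0.96, limma adjusted p = 0.729). limma called 0 of the 10 genes different between M1 and the other lines, against 0.0940% of all probe sets, and 1 of them, Trp63, had an unadjusted p under 0.05 (1640 of all probe sets did). For 7 of the 10 the interval lay within 2-fold. M1 has 1 array, and its spread was taken from the other lines.

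**Figure D3:**
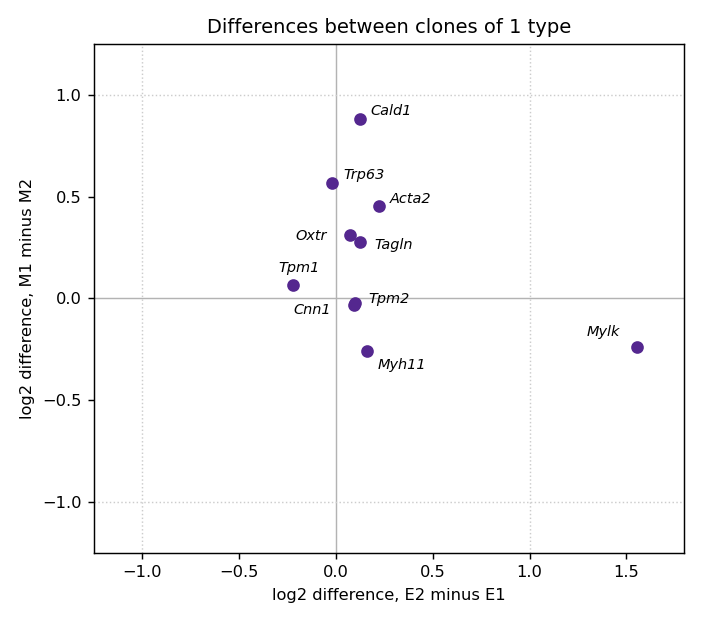
Log2 difference of E2 from E1 (horizontal axis) and of M1 from M2 (vertical axis) for the 10 genes, 1 array per line; dotted lines mark 2-fold. Mylk lies at 1.56 on the horizontal axis, and Cald1 is the highest point on the vertical axis at 0.88.

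Of 29 other contractile and actin-binding genes measured, limma called 1 higher and 1 lower in the epithelial lines, 6.90% against 3.73% of all probe sets, with a median log2 difference of -0.004. Tensin 1 (Tns1), which links actin to integrin adhesions, was at 7.20, 6.91, 11.80 and 11.90 in E1, E2, M1 and M2, and 5 of its 6 probe sets were called. Integrin alpha 8 (Itga8), a receptor of smooth muscle and mesenchymal cells, was higher in the epithelial lines, at 12.91 and 12.61 against 11.09 and 10.94 (limma adjusted p = 0.0199). Csrp2 and Des, a LIM protein and the intermediate filament desmin of muscle cells, had log2 differences of -1.57 and -1.20 and did not pass (limma adjusted p = 0.109 and 0.241). Caveolin 1 (Cav1) was at 11.16, 8.22, 12.40 and 11.95 in E1, E2, M1 and M2 (limma adjusted p = 0.356), and Fhl1, a LIM protein of muscle, at 8.56, 6.48, 6.12 and 6.49 (limma adjusted p = 0.541), so that in each of them the epithelial lines differed from each other.

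Among 20 paralogs of the 10 genes, 1 was called higher in the epithelial lines and 0 lower, 5% against 3.73% of all probe sets, with a median of 0.06. Myh14, a non-muscle myosin heavy chain of epithelial cells, was at 8.83, 9.11, 7.46 and 7.23 in E1, E2, M1 and M2 (limma adjusted p = 0.0258). Its relative Myh10 was at 9.46, 9.38, 7.92 and 6.67, which did not pass (limma adjusted p = 0.119), and Myh9 at 11.91, 11.92, 12.12 and 12.23 (limma adjusted p = 0.340). The enteric smooth muscle actin Actg2 had a log2 difference of 0.47 (95% interval 0.12 to 0.83, limma adjusted p = 0.178). The cytoplasmic actin Actb was even, at 14.01, 14.07, 14.00 and 14.03. The vasopressin receptors Avpr1a, Avpr1b and Avpr2, relatives of Oxtr, differed by -0.09, -0.13 and -0.14, and Trp73, a relative of Trp63, by 0.09, with none called. Actc1, the cardiac actin, and Tagln3 differed by 0.10 and -0.06 and were not called either.

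Srf, which drives contractile genes, was at 10.42, 9.99, 10.30 and 10.32 in E1, E2, M1 and M2, a log2 difference of -0.10 (95% interval -0.61 to 0.40, limma adjusted p = 0.863). Myocardin (Myocd), its cofactor in smooth muscle, was at 5.63, 5.71, 5.59 and 5.70, and the actin-sensitive cofactor Mrtfa at 9.90, 9.91, 10.20 and 10.53. Mrtfb, a related cofactor, has 3 probe sets. The one with the highest mean was low in M2 alone, at 9.91 against 11.14, 11.00 and 11.39 in E1, E2 and M1. M2 was the lowest line for 4 of the 10 contractile and basal genes, among them Cald1, and E1 was the lowest for 5. The share of all probe sets lowest in each line is not given here, and a link with Mrtfb was not tested. Of the 10 genes for Srf, its cofactors and related regulators that were measured, limma called 2 lower in the epithelial lines and 0 higher, 20.0% against 3.73% of all probe sets. Those 2 were not cofactors: Klf4, which is known to repress smooth muscle genes, was at 6.74, 6.53, 10.13 and 10.05 (limma adjusted p = 0.00313), and Gata6, a transcription factor of vascular smooth muscle among other cells, at 6.53, 6.74, 9.78 and 11.18 (limma adjusted p = 0.0483). Elk3, which competes for Srf, had a log2 difference of -1.08 and did not pass (limma adjusted p = 0.0893). Elk1, Elk4 and Foxo4 differed by -0.05, 0.20 and 0.14 and were not called.

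Of 13 genes around the oxytocin receptor, limma called 2 higher and 1 lower in the epithelial lines, 23.1% against 3.73% of all probe sets, with a median of -0.07. The phospholipase Plcb4 was lower, at 5.56 and 5.58 in E1 and E2 against 10.11 and 9.65 in M1 and M2. The G protein subunit Gnaq and the calcium channel Orai1 were higher by 1.01 and 0.98 on the log2 scale (limma adjusted p = 0.0410 and 0.0298).

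**Figure D4:**
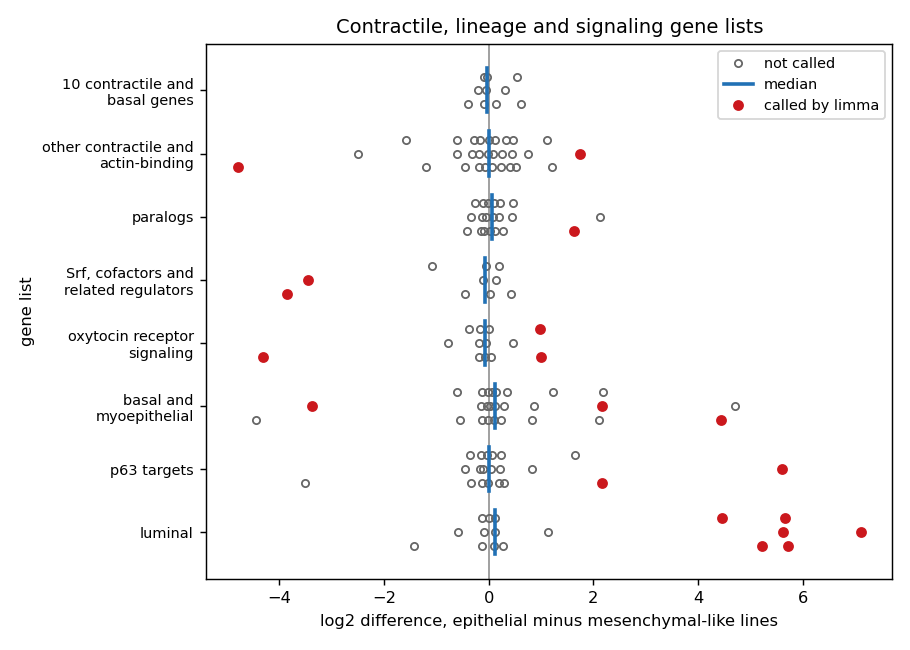
Log2 difference, epithelial minus mesenchymal-like lines (horizontal axis), of each measured gene in 8 lists (vertical axis); filled points were called by limma and bars are list medians. No filled point lies in the row of the 10 genes, while 6 luminal genes are called higher in the epithelial lines.

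Of 7 markers fixed for myoepithelial cells (Acta2, Myh11, Cnn1, Oxtr, Trp63 and the basal keratins Krt5 and Krt14), limma called 0, with 0 at an unadjusted p under 0.05, and their levels ran from 6.003 to 7.36 with ranges of at most 0.59. Of 26 basal and myoepithelial genes, 2 were called higher and 1 lower in the epithelial lines, 11.5% against 3.73% of all probe sets, with a median of 0.11. Those were the Notch ligand Dll1 (log2 difference 4.43), Sfn (2.16), a 14-3-3 protein of epithelial cells, and Procr (-3.37), a receptor that marks a subset of mammary stem cells. The enkephalinase Mme (CD10), a surface marker of myoepithelium, was at 12.39, 12.32, 9.40 and 5.89 in E1, E2, M1 and M2 and was not called (limma adjusted p = 0.172). Snai2, a transcription factor of basal cells and of epithelial to mesenchymal transition, was at 6.03, 5.57, 11.12 and 9.39 (limma adjusted p = 0.0574). Of 20 p63 targets, 2 (10.0%) were called higher and 0 lower, Tfap2c and Sfn, with a median of 0.009. Sfn is also in the basal list.

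Of 17 luminal markers measured, limma called 6 higher in the epithelial lines and 0 lower, 35.3% against 3.73% of all probe sets. The list median was 0.12. Called were Epcam, Elf5, Kit, Cdh1, Krt7 and Prom1, by 4.46 to 7.12 on the log2 scale. Krt8, Krt18, Krt19 and Gata3 of the same list were not called, with differences of -0.13, 0.28, -0.08 and 0.10. Among the luminal genes not called, Esr1 and Foxa1 differed most, in opposite directions, by -1.43 and 1.13 (limma adjusted p = 0.205 and 0.1255). Krt8 was at 13.27, 13.60, 13.44 and 13.69 in E1, E2, M1 and M2, and Gata3 at 11.60, 11.79, 11.43 and 11.77. Among markers of other cell types, 2 of 12 fibroblast genes were called lower in the epithelial lines, 16.7% against 3.73% of all probe sets. Those were Fbln2 and S100a4, with log2 differences of -5.29 and -3.52, and the median over that list was -0.05. Decorin (Dcn), a matrix protein, was high in M1 alone, at 10.08 against 5.49, 5.62 and 5.74 in E1, E2 and M2. Periostin (Postn) had a difference between the types in the other direction, 1.56. Neither was called in that comparison (limma adjusted p = 0.560 for Dcn and 0.392 for Postn), which does not isolate a level high in M1 alone. In the fit of M1 against the other lines, the log2 difference of Dcn was 4.46. Pdgfra, a receptor of fibroblasts, was at 7.78, 7.83, 8.71 and 10.20 in E1, E2, M1 and M2 and was not called (limma adjusted p = 0.239). Of 10 pericyte genes, 1 was called higher, 10% against 3.73% of all probe sets, the receptor Notch3, at 9.01, 9.62, 6.79 and 6.98. Pdgfrb of the same list went the other way and was high in M1 alone, at 5.86, 6.03, 9.51 and 5.92. Its log2 difference between the types was -1.77 and was not called (limma adjusted p = 0.601), which again does not isolate a level high in M1 alone. In the fit of M1 against the other lines, the log2 difference of Pdgfrb was 3.57. None of the 9 skeletal muscle, 8 endothelial, 9 leukocyte and 5 adipocyte markers was called by limma in either direction. The defining skeletal muscle gene Acta1 was at 7.90, 7.84, 7.61 and 7.74, and the leukocyte gene Ptprc at 5.51, 5.59, 5.88 and 5.54. Not all genes of these lists were even. In E1, E2, M1 and M2, Lyz2 of the leukocyte list was at 5.08, 5.65, 8.91 and 6.57. Cd68 was at 10.66, 8.77, 10.59 and 11.60, and Cd14 at 9.12, 10.91, 9.77 and 8.92. Fabp4 of the adipocyte list was at 5.26, 5.50, 7.20 and 10.77, and Cdh5 of the endothelial list at 5.99, 6.15, 7.58 and 6.72. The part of such cells in the levels of the contractile genes was not tested.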

How the data were processed

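RNA of 4 clonal lines was measured on Affymetrix MoGene 1.0 ST arrays, with 1 array per line. The authors deposited processed log2 levels for 35556 probe sets. Partek is named in the submitters' processing notes, and the background correction, summarization and normalization are not given in the sources used here. The values, from 2.28 to 14.5 with a median of 6.78, were used without further scaling. The platform annotation gave symbols to 23410 probe sets (1621 of them to several genes), and 0 symbols changed when checked through gene identifiers. These probe sets were tested with limma 3.58.1 in R 4.3.3 (lmFit, eBayes), for the 2 types and for M1 against the other lines, each with 2 residual degrees of freedom. P-values were adjusted over all of them by Benjamini and Hochberg, with a threshold of 0.05. Several probe sets of a gene were represented by the one with the highest mean.

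The genes named are the 10, all measured paralogs and Srf-related genes, the genes that check the labels, the markers fixed for myoepithelial and luminal cells, and, of the other lists, genes from the 6 with the largest difference, called genes first. Cd24a is outside this rule and was named after its values were seen, because the lines were sorted on CD24. Esr1 and Foxa1 are outside it too and were named after their values were seen, for the size of their differences. The 10 genes and the lists were chosen with earlier results of these data known. The result of 1 further list is not reported here. Some lists share genes, among them Krt5, Krt14, Sfn, Itgb4, Actg2, Acta1 and Cdh1. The script was tested on simulated data. Precision is limited by having 1 array per line, and the medians of the arrays ran from 6.75 to 6.85.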

Additional observations from a re-analysis of the deposited data

How the results depend on the processing

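None of the 10 genes was called between the types or for M1 under any alternative reported here. A further fit between the types, with E1 and M2 in the same block, was run and is not reported. Of 104 alternative differences between the types, 93 kept their direction, 7 turned and 4 were 0 (Cnn1, Tagln, Tpm2 and Oxtr with levels below the median of all values raised to it). The filter on dim probe sets, the test of all probe sets, the mean-variance trend and the replicate block leave each difference unchanged. They could not turn a direction, and their values are counted among the 93. The difference of Acta2 turned to 0.018 with quantile normalization and 0.013 with centring on medians. Leaving out each line in turn gave -0.26 to 0.19 for Acta2, -0.17 to 1.39 for Mylk, -0.12 to 0.76 for Cald1, -0.38 to 0.19 for Trp63, 0.02 to 0.28 for Myh11, -0.13 to -0.03 for Cnn1, -0.34 to -0.06 for Tagln, 0.42 to 0.64 for Tpm1, -0.10 to -0.004 for Tpm2 and -0.55 to -0.24 for Oxtr. Over all probe sets, calls between the types ran from 0 (without E1 or without E2, with 2579 and 2651 at an unadjusted p under 0.05) to 1879 (without M2), and were 319 with the clone number as a replicate block. E1 and M1 share only a number (correlation of within-type differences -0.04). For M1, calls were 40 with centring, 62 with a mean-variance trend, 11 with all probe sets tested, 0 with the filter on dim probe sets (966 at an unadjusted p under 0.05), and 0 to 1879 without each line, where the fit without M2 compares M1 with E1 and E2; without M1 no such fit exists. The cause was not tested. The filter left 4 of the 10 genes.

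With 2 clones per type, the 1.45-fold difference of Tpm1 did not pass the adjustment. Signal over background could not be judged, since background levels were not used here. Of 40 differences within a type under quantile normalization or with low levels raised to the median, 4 moved by more than the spread. All 4 were between M1 and M2 with low levels raised: Trp63 to 0.27, Myh11 to -0.05, and Tagln and Oxtr to 0.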
